A study of Mus musculus with 2 samples.

Results

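The cathepsin, Lamp and proton pump genes described here are all symbols of the deposited table that begin with Atp6v, begin with Lamp and a digit, or consist of Cts and 1 lower-case letter, without Ctsg and Ctsw, which belong to granules of neutrophils and of cytotoxic lymphocytes. They are 42 of 23233 listed genes: 16 cathepsin genes, 3 Lamp genes and 23 proton pump symbols, of which 1, Atp6v0c-ps2, is annotated as a transcribed pseudogene. Lysosomes are the acidic compartments in which cells break down proteins, lipids and sugars taken up from outside or delivered by autophagy. Cathepsins are proteases that work at low pH inside them, Lamp glycoproteins coat the inner face of their membrane, and the vacuolar proton pump acidifies them by coupling ATP hydrolysis in its peripheral V1 sector to proton transport through its membrane-embedded V0 sector. In skin, keratinocytes, melanocytes, fibroblasts and phagocytes all use this machinery, and phagocytes and antigen-presenting cells carry additional cathepsins such as cathepsin S.

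The study compared ZIP10-positive with ZIP10-negative cells of C57BL/6 mice aged 7 days, where ZIP10 is a zinc importer of the cell surface. Dispase and collagenase freed the cells of ventral skin, and these were labelled with an antibody to ZIP10 and with the dead-cell dye 7-AAD, then sorted by flow cytometry. From polyadenylated RNA 1 library was made per population, so the design has 2 libraries and no replicate, and every difference below describes these libraries without a test. How many animals were used, and whether they were pooled, the labels do not say. Sample titles name hair follicles as the source, whereas the written protocol starts from all of the excised ventral skin. Slc39a10, the gene of ZIP10, stood at 49.4 RPKM in ZIP10-positive against 11.1 RPKM in ZIP10-negative cells.

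Both libraries held RNA of several cell types, and most values were higher in the ZIP10-positive one. RPKM is the number of reads scaled by transcript length and by library size. The estimated depth was 2.78e+06 reads in the ZIP10-positive and 2.71e+06 reads in the ZIP10-negative library. The 12249 genes that reached 1 RPKM in either library were compared, and as deposited 44.1% of these were higher by 2-fold or more and 3.55% lower by as much, on the log2(RPKM + 1) scale. All log2 ratios and counts use that scale, which understates the change of low genes, while ratios are those of RPKM itself. Among genes that reached 1 RPKM in both, the median gene was 1.97-fold higher. Measured from that gene, the shares were 14.7% higher and 11.4% lower, and these shares are the background for the counts below. On that scale the log2 ratio of Slc39a10 was 1.12. Over all compared genes the ratio also followed transcript length. Genes with transcripts of up to 1000 bases had a median log2 ratio of 0.81 relative to the median gene, and genes over 6000 bases one of -0.38. Keratinocyte genes of the basal layer and outer root sheath summed to 3573 RPKM in ZIP10-positive against 1316 RPKM in ZIP10-negative cells, and fibroblast genes to 1078 and 1037 RPKM in ZIP10-positive and ZIP10-negative cells. Erythroid genes, which include the globins, summed to 16378 RPKM in ZIP10-positive against 283756 RPKM in ZIP10-negative cells. A difference between such sorted mixtures can come from fewer cells of a type or from less RNA per cell, and these cannot be told apart. An exact 0 in this table may be a failed estimate, since the broadly used genes Psmg4 and Ndufaf3, named after their values were seen, stood at 69.5 and 25.0 RPKM in ZIP10-positive cells and were listed at 0 in ZIP10-negative cells.

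The promoters of 4 members are shown as examples: Ctss had the highest ratio, Ctsd was the most abundant cathepsin gene, Lamp1 lay above its partner Lamp2, and Atp6v0d1 is a core pump subunit. They do not span the range of the results, since Ctse, Atp6v1g2, Atp6v0a1 and Atp6v0a2 had lower log2 ratios than any of them. Each is 250 bases before to 50 after an annotated start in RefSeq, build GRCm38.p6, and is printed 5′ to 3′ on the strand of the gene. They lie at chr3:95526536-95526835 on the plus strand for Ctss, chr7:142387778-142388077 on the minus strand for Ctsd, chr8:13158911-13159210 on the plus strand for Lamp1 and chr8:105566015-105566314 on the minus strand for Atp6v0d1. Capitals mark matches on either strand to the E-box CACGTG, its longer form TCACGTGA, the purine-rich GAGGAAGT, and a pair of GAAA runs 2 bases apart. The E-box with its flanks is the core of the element bound by TFEB, a transcription factor of lysosomal genes. The purine-rich motif resembles sites of PU.1, a factor of myeloid cells, and the last one resembles sites of interferon regulatory factors.
Ctss: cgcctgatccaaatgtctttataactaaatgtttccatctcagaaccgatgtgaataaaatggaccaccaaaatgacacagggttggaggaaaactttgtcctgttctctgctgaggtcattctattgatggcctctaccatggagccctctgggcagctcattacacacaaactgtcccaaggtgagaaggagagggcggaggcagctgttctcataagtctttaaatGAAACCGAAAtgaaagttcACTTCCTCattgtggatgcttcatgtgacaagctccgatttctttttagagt
Ctsd: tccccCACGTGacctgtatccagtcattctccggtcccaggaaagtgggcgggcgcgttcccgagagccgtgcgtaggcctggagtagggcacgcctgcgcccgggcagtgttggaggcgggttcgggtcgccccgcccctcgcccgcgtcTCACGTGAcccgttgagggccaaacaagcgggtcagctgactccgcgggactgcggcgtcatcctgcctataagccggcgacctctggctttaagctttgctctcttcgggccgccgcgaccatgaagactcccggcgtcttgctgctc
Lamp1: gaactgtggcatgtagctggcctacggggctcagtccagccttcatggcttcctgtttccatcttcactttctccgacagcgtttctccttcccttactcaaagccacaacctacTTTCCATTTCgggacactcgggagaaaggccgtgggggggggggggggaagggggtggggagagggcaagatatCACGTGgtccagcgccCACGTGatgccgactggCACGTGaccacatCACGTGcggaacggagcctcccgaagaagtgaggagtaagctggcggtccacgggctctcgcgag
Atp6v0d1: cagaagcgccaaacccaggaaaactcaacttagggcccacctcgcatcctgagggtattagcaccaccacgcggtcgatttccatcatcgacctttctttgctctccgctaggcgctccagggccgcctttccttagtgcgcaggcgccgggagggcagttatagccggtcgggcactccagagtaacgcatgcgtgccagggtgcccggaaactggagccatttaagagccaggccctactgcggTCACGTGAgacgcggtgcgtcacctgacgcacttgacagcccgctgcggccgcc

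A promoter was on hand for 32 of the 42 genes, in 36 windows. The E-box CACGTG was found in 4 of 13 cathepsin genes, 1 of 3 Lamp genes and 4 of 16 pump genes, against 7.15% of all 32851 windows of this length. The printed promoters of Ctsd, Lamp1 and Atp6v0d1 hold it, while most members do not. Its longer form TCACGTGA, which always contains the short one, was found in Ctsa, Ctsd, Atp6v0d1, Atp6v0e and Atp6v1a, against 0.974% of all windows. The form with a further G before and a further C after it was found in no member, against 0.326% of all windows. The log2 ratios of the genes with CACGTG, relative to the median gene, ran from -0.74 for Ctsd to 0.88 for Atp6v0e. The Ctss window held no E-box. It held the paired GAAA runs from position -21 and GAGGAAGT, on the other strand, from position -2, counting the annotated start as 0. These motifs were searched after that sequence had been read, and they occur in 3.44% and 3.20% of all windows. The paired GAAA runs were also found in Ctso, Lamp1, Lamp3 and Atp6v1d, and GAGGAAGT also in Ctsc. Of these Ctso, Lamp1, Atp6v1d and Ctsc were compared, and all lay within 2-fold of the median gene. A match is a description of the letters and not evidence of binding. A gene with several windows counts as matched if any of them holds the motif.

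Among the cathepsins, Ctss and Ctsh were far higher in ZIP10-positive cells, the other cysteine cathepsins and Ctsa lay within 2-fold of the median gene, and the aspartic cathepsins lay below it. Of the 16 cathepsin genes, 12 reached 1 RPKM in a library and were compared. The 4 placental-type genes Ctsj, Ctsm, Ctsq and Ctsr were listed at 0 in both libraries. As deposited 7 of the 12 exceeded 2-fold and 1 was lower by as much, against 44.1% and 3.55% of all compared genes. Relative to the median gene 2 of 12 were higher and 1 lower, which is near the background shares of 14.7% and 11.4%. The median log2 ratio of the 12 relative to the median gene was 0.23, against 0.09 over all compared genes, and its sign depended on the scaling. Relative to genes of similar transcript length it was 0.0036. The summed level of the cathepsin genes was 822 RPKM in ZIP10-positive against 401 RPKM in ZIP10-negative cells, a ratio of 2.05 that is close to that of the median gene.

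Ctss encodes cathepsin S, which trims the invariant chain of class II molecules in antigen-presenting cells. It stood at 83.3 RPKM in ZIP10-positive against 0.960 RPKM in ZIP10-negative cells, an 86.8-fold difference. The estimated read numbers were 267 and 3 in ZIP10-positive and ZIP10-negative cells, which gives an approximate 95% counting interval of 29.4 to 424 for the ratio. All intervals of this kind are exact binomial ones from reads estimated through annotated transcript lengths, and they cover counting error only. Relative to the median gene Ctss was 44.1-fold higher and ranked 39 among the 12249 compared genes. It made up 10.1% of the summed cathepsin level in ZIP10-positive cells and 0.239% in ZIP10-negative cells.

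Ctsh, an aminopeptidase that also acts as an endopeptidase, was next. It stood at 50.6 RPKM in ZIP10-positive against 7.52 RPKM in ZIP10-negative cells, a ratio of 6.73 with an interval of 4.52 to 10.3. Relative to the median gene it was 3.41-fold higher. Ctss and Ctsh were the cathepsins that stayed at least 2-fold higher relative to genes of similar transcript length, at log2 ratios of 4.31 and 1.37. Under every scaling and pseudocount tried, the log2 ratio ranged from 3.34 to 5.43 for Ctss and from 1.29 to 2.60 for Ctsh.

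Most markers of myeloid cells moved with these genes. Of 16 compared macrophage and monocyte markers, 12 exceeded the median gene by 2-fold or more and none fell short of it by as much, with a summed level of 1210.35 RPKM in ZIP10-positive against 63.5 RPKM in ZIP10-negative cells. Lyz2, which encodes a lysozyme of macrophages and neutrophils, had 772 RPKM in ZIP10-positive cells and was listed at 0 for ZIP10-negative cells, as were C1qa, C1qb, C1qc, Fcgr1, Aif1 and Ms4a7. Cd68 and Cx3cr1, also among the most abundant of the list, stood at 31.3 and 11.6 RPKM in ZIP10-positive against 11.0 and 9.82 RPKM in ZIP10-negative cells. Their log2 ratios relative to the median gene were 0.50 and -0.67, and Cx3cr1 was the 1 marker of the 16 below it. The list for dendritic and Langerhans cells had 6 of 10 compared markers at least 2-fold higher and none lower, at summed levels of 1080.2 and 129 RPKM in ZIP10-positive and ZIP10-negative cells. Cd74, the invariant chain that cathepsin S cleaves, stood at 339.99 RPKM in ZIP10-positive against 33.8 RPKM in ZIP10-negative cells. Neutrophil markers were higher by 2-fold or more in 8 of 8 compared, at 1679.7 RPKM in ZIP10-positive against 16.3 RPKM in ZIP10-negative cells. Of these 8 markers 5 were listed at 0 in ZIP10-negative cells. Mpo and Elane of that list were at 0 in both libraries, and Ly6g was not listed. Mast cell markers were higher in 6 of 8, at 386 and 37.0 RPKM in ZIP10-positive and ZIP10-negative cells. The background share for these marker counts was 14.7%. Itgax of the dendritic list and Kit of the mast cell list lay below the median gene, at log2 ratios of -0.03 and -0.38. The part of these cell types in the Ctss and Ctsh values was not tested.

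The other cysteine cathepsins stayed near the median gene. Ctsb, a broadly used endopeptidase and carboxypeptidase, stood at 127 RPKM in ZIP10-positive against 51.6 RPKM in ZIP10-negative cells, a ratio of 2.45 with an interval of 2.23 to 2.69. Ctsz, a carboxypeptidase, stood at 121 and 42.4 RPKM in ZIP10-positive and ZIP10-negative cells, a ratio of 2.86 with an interval of 2.35 to 3.47. The intervals of both lie above the 1.97 of the median gene. Relative to genes of similar length the interval of Ctsb stayed above the zero point, and that of Ctsz held it. Ctsl, whose loss in mice disturbs the hair cycle, stood at 53.0 RPKM in ZIP10-positive against 24.3 RPKM in ZIP10-negative cells, a ratio of 2.19 with an interval of 1.76 to 2.76. Ctsk, a collagen-degrading protease of osteoclasts and fibroblasts, stood at 40.7 and 16.1 RPKM in ZIP10-positive and ZIP10-negative cells, a ratio of 2.53. The intervals of Ctsl and Ctsk hold the ratio of the median gene.

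Ctsc, which activates serine proteases of mast cell, neutrophil and lymphocyte granules, had a ratio of 1.90, at 39.3 RPKM in ZIP10-positive against 20.7 RPKM in ZIP10-negative cells. Its ratio was smaller than those of most mast cell and neutrophil markers. Ctsf, a lysosomal endopeptidase, stood at 34.7 RPKM in ZIP10-positive against 19.7 RPKM in ZIP10-negative cells, and Ctso at 2.32 and 2.27 RPKM in ZIP10-positive and ZIP10-negative cells. The intervals of these 3 genes also hold the ratio of the median gene. Ctsa, a serine carboxypeptidase that protects neuraminidase and beta-galactosidase in the lysosome, stood at 40.5 RPKM in ZIP10-positive against 15.0 RPKM in ZIP10-negative cells, a ratio of 2.70 with an interval of 2.19 to 3.38. The log2 ratios of Ctsb, Ctsc, Ctsf, Ctsk, Ctsl and Ctso were above 0 under some scalings and below 0 under others, while those of Ctsa and Ctsz stayed above 0.

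The aspartic cathepsins Ctsd and Ctse lay below the median gene. Ctsd, the main aspartic protease of lysosomes, stood at 230.04 RPKM in ZIP10-positive against 196 RPKM in ZIP10-negative cells, a ratio of 1.17 with an interval of 1.08 to 1.28. It was the most abundant cathepsin gene of both libraries, with 28.0% of the summed cathepsin level in ZIP10-positive and 48.8% in ZIP10-negative cells. Ctsd was lower relative to the median gene, at a log2 ratio of -0.74, and at -0.85 relative to genes of similar length, although its value as deposited was slightly higher in ZIP10-positive cells. Its log2 ratio was -1.05 when scaled to genes outside the 50 most abundant and -1.16 when scaled without globin genes and the ribosomal RNA gene Rn45s, which makes 2 cathepsins at least 2-fold lower. Ctse, an aspartic protease of immune cells and stomach, was listed at 0 in ZIP10-positive cells and stood at 4.61 RPKM in ZIP10-negative cells, an estimated 24 reads. Ctse is the 1 cathepsin at least 2-fold lower relative to the median gene.

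**Figure D1:**
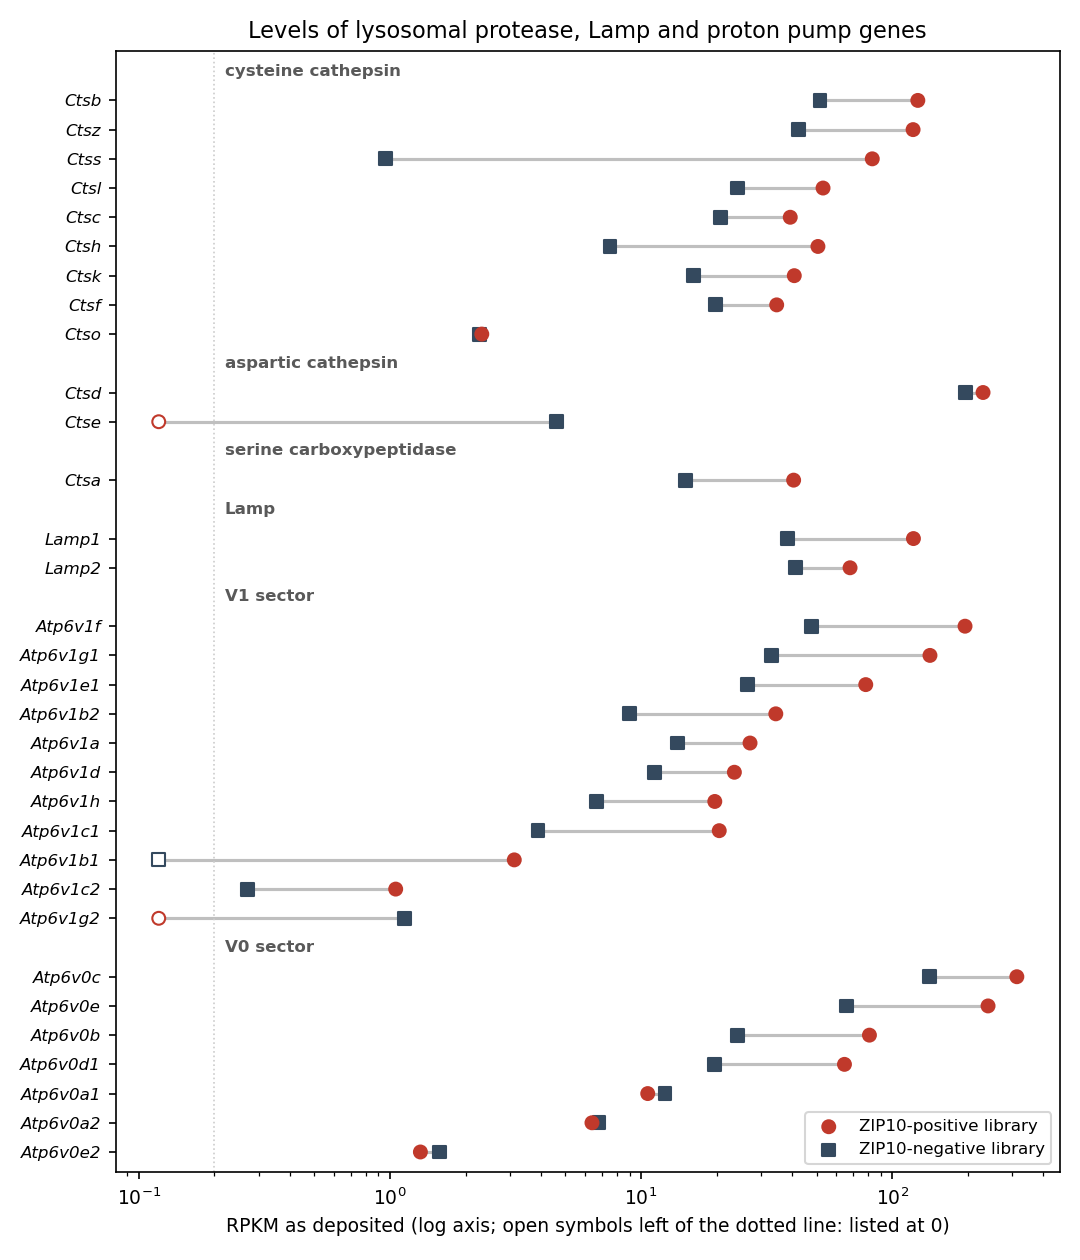
Deposited RPKM of the 32 compared genes (log x axis), grouped by role, with circles for the ZIP10-positive and squares for the ZIP10-negative library; open symbols mark genes listed at 0. Among genes above 0 in both libraries Ctss spans the widest range, from 83.3 RPKM in ZIP10-positive to 0.960 RPKM in ZIP10-negative cells, while Ctsd, Ctso, Atp6v0a1 and Atp6v0a2 differ little between the libraries.

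Lamp1 and Lamp2, the most abundant glycoproteins of the lysosome membrane, had different ratios. Lamp1 stood at 122 RPKM in ZIP10-positive against 38.4 RPKM in ZIP10-negative cells, a ratio of 3.16 with an interval of 2.71 to 3.71. Lamp2, one isoform of which serves chaperone-mediated autophagy, stood at 68.0 RPKM in ZIP10-positive against 41.1 RPKM in ZIP10-negative cells, a ratio of 1.65. Relative to the median gene the interval of Lamp1 was 1.38 to 1.88 and that of Lamp2 was 0.709 to 0.996, so they lie on either side of it, Lamp2 only just. In ZIP10-negative cells the genes had nearly equal levels, and in ZIP10-positive cells Lamp1 was the higher. Their transcripts are similar in length, at 2229 and 2184 bases for Lamp1 and Lamp2, and relative to genes of similar length the log2 ratios were 0.55 and -0.37. Neither was 2-fold apart from the median gene, and Lamp2 was above 0 as deposited, at 0.71. Lamp3, a marker of mature dendritic cells, stood at 0.915 RPKM in ZIP10-positive cells and was listed at 0 for ZIP10-negative cells, below the level at which genes were compared.

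Most proton pump subunits were higher in ZIP10-positive cells by somewhat more than the median gene, and the a subunits Atp6v0a1 and Atp6v0a2 were not. Of 23 symbols 18 were compared. As deposited 11 of 18 exceeded 2-fold and 1 was lower by as much, against 44.1% and 3.55% of all compared genes. Relative to the median gene Atp6v1b1, Atp6v1c1, Atp6v1f and Atp6v1g1, or 4 of 18, were higher and Atp6v0a1 and Atp6v1g2, or 2 of 18, lower, against background shares of 14.7% and 11.4%. When scaled to genes outside the 50 most abundant, or without globin genes and Rn45s, 1 subunit was at least 2-fold higher and 3 were lower. The median log2 ratio of the 18 relative to the median gene was 0.56, against 0.09 over all compared genes, and 13 of the 18 lay above 0, against 54.5% of all compared genes. Their transcripts are short, with a median of 1665 bases against 2739 bases over all compared genes. Genes of matching lengths had a median zero point 0.29 above the median gene, and measured from there the pump median was 0.25, with 2 subunits at least 2-fold higher and 1 lower. Background shares on that scale were 11.7% and 10.1%. The summed level of all pump symbols was 1263 RPKM in ZIP10-positive against 425 RPKM in ZIP10-negative cells, a ratio of 2.97.

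In the V1 sector, which hydrolyses ATP, 4 of 11 compared subunits were at least 2-fold higher relative to the median gene and 1 lower. The background shares were 14.7% and 11.4%. Of the higher ones Atp6v1b1 was listed at 0 in ZIP10-negative cells, and Atp6v1f and Atp6v1g1 fell below 2-fold relative to genes of similar length. The lower one, Atp6v1g2, was listed at 0 in ZIP10-positive cells. Atp6v1a, the catalytic A subunit, stood at 27.2 RPKM in ZIP10-positive against 13.97 RPKM in ZIP10-negative cells, a ratio of 1.94 with an interval of 1.59 to 2.37 that holds the median gene. Its partner in the catalytic ring, Atp6v1b2, stood at 34.4 RPKM in ZIP10-positive against 8.997 RPKM in ZIP10-negative cells, a ratio of 3.82 with an interval of 2.90 to 5.12. The intervals of these ring partners do not overlap. Their transcripts differ in length, at 4234 bases for Atp6v1a and 2825 bases for Atp6v1b2, and relative to genes of similar length the intervals were 0.991 to 1.48 and 1.41 to 2.50, which overlap. Atp6v1d and Atp6v1f form the central rotor. Atp6v1d, with a transcript of 3667 bases, had a ratio of 2.08, at 23.5 RPKM in ZIP10-positive against 11.3 RPKM in ZIP10-negative cells. Atp6v1f, with one of 703 bases, had a ratio of 4.08, at 195 and 47.8 RPKM in ZIP10-positive and ZIP10-negative cells. Relative to genes of similar length the log2 ratios of Atp6v1d and Atp6v1f were 0.25 and 0.34, and both intervals held the zero point on that scale.

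Atp6v1e1 and Atp6v1g1 build the outer stalks. Atp6v1g1 stood at 141 RPKM in ZIP10-positive against 33.1 RPKM in ZIP10-negative cells, a ratio of 4.27, and Atp6v1e1 at 78.5 and 26.5 RPKM in ZIP10-positive and ZIP10-negative cells, a ratio of 2.96. Atp6v1h, a regulatory subunit, stood at 19.7 RPKM in ZIP10-positive against 6.65 RPKM in ZIP10-negative cells, also a ratio of 2.96. Both Atp6v1g1 and Atp6v1e1 were above the median gene beyond their counting intervals, while the interval of Atp6v1h held it. Relative to genes of similar length the log2 ratios were 0.62 for Atp6v1g1, 0.40 for Atp6v1h and 0.09 for Atp6v1e1, and the interval of Atp6v1g1 stayed above the zero point while those of Atp6v1h and Atp6v1e1 held it. The largest difference among subunits above 0 in both libraries was that of Atp6v1c1, the C subunit that joins the sectors when the pump assembles. It stood at 20.5 RPKM in ZIP10-positive against 3.89 RPKM in ZIP10-negative cells, a ratio of 5.27 with an interval of 3.19 to 8.81. Relative to genes of similar length its log2 ratio was 1.21.

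In the V0 sector, which carries the protons, Atp6v0b, Atp6v0c, Atp6v0d1 and Atp6v0e had higher ratios than the a subunits Atp6v0a1 and Atp6v0a2, while the low Atp6v0e2 did not. Atp6v0c, the proteolipid of the proton-carrying ring, was the most abundant pump gene of both libraries, at 314 RPKM in ZIP10-positive against 141 RPKM in ZIP10-negative cells, a ratio of 2.23. Atp6v0e, a small membrane subunit, stood at 241 RPKM in ZIP10-positive against 65.9 RPKM in ZIP10-negative cells, a ratio of 3.65. Atp6v0b, a ring subunit, and Atp6v0d1, which connects the ring with the rotor, had ratios of 3.36 and 3.30. Atp6v0b stood at 81.2 RPKM in ZIP10-positive against 24.2 RPKM in ZIP10-negative cells, and Atp6v0d1 at 64.6 and 19.5 RPKM in ZIP10-positive and ZIP10-negative cells. The ratios of these 4 subunits ran from 2.23 to 3.65, with Atp6v0c the lowest. Their transcripts are short, and relative to genes of similar length the log2 ratios were -0.32 for Atp6v0c, 0.24 for Atp6v0e, 0.25 for Atp6v0b and 0.41 for Atp6v0d1. On that scale the interval of Atp6v0c lay below 1, those of Atp6v0e and Atp6v0b held 1, and that of Atp6v0d1 stayed above it. The sign of the Atp6v0c difference from the median gene thus depended on the scaling.

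The a subunits hold the channels through which protons enter and leave the ring, and they direct the pump to particular membranes. Atp6v0a1 stood at 10.6 RPKM in ZIP10-positive against 12.5 RPKM in ZIP10-negative cells, a ratio of 0.854 with an interval of 0.654 to 1.12. Atp6v0a2 stood at 6.37 RPKM in ZIP10-positive against 6.80 RPKM in ZIP10-negative cells, a ratio of 0.938 with an interval of 0.693 to 1.26. Both intervals hold equal values and lie below the median gene. Their log2 ratios relative to the median gene were -1.11 for Atp6v0a1 and -0.93 for Atp6v0a2. Both transcripts are long, at 3813 and 5345 bases, and relative to genes of similar length the log2 ratios were -0.92 and -0.56. The a3 subunit gene Tcirg1, which the symbol rule leaves out and which was named after its value was seen, stood at 7.23 RPKM in ZIP10-positive against 4.30 RPKM in ZIP10-negative cells. Its ratio was 1.68, a log2 ratio of -0.19 relative to the median gene. Summed over the 4 a subunit genes the level was 24.7 RPKM in ZIP10-positive against 23.5 RPKM in ZIP10-negative cells, while the ring gene Atp6v0c had a ratio of 2.23. The Atp6v0c transcript is shorter, at 1183 bases, and relative to genes of similar length its log2 ratio was -0.32. On that scale the interval of Atp6v0c, 0.711 to 0.909, overlapped that of Atp6v0a2, 0.474 to 0.860. The interval of Atp6v0a1, 0.383 to 0.655, lay below that of Atp6v0c.

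Where a subunit has several genes, the broadly used one made up most of the level in both libraries, and the a subunit was spread over several genes. Atp6v1b2 made up 91.7% of the summed B subunit level in ZIP10-positive and 100% in ZIP10-negative cells. The remainder was Atp6v1b1, the form of kidney and inner ear, at 3.13 RPKM in ZIP10-positive cells and listed at 0 in ZIP10-negative cells. Atp6v1c1 made up 95.1% and 93.5% of the C subunit level in ZIP10-positive and ZIP10-negative cells, and Atp6v1c2 stood at 1.05 and 0.270 RPKM in ZIP10-positive and ZIP10-negative cells. The brain form Atp6v1g2 was listed at 0 in ZIP10-positive cells and stood at 1.14 RPKM in ZIP10-negative cells, an estimated 4 reads. Atp6v0e2 stood at 1.32 RPKM in ZIP10-positive against 1.58 RPKM in ZIP10-negative cells, or about 6 reads each. Atp6v0d2, which osteoclasts use, was listed at 0 and at 0.480 RPKM in ZIP10-positive and ZIP10-negative cells, and the kidney form Atp6v0a4 at 0.466 RPKM in ZIP10-positive cells and 0 in ZIP10-negative cells. Both, like the pseudogene Atp6v0c-ps2 at 0.00284 and 0.00716 RPKM in ZIP10-positive and ZIP10-negative cells, were too low to compare, and Atp6v1e2 and Atp6v1g3 were listed at 0 in both libraries. Reads of Atp6v0c and of its pseudogene copies can be shared, so its level is uncertain to that extent.

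**Figure D2:**
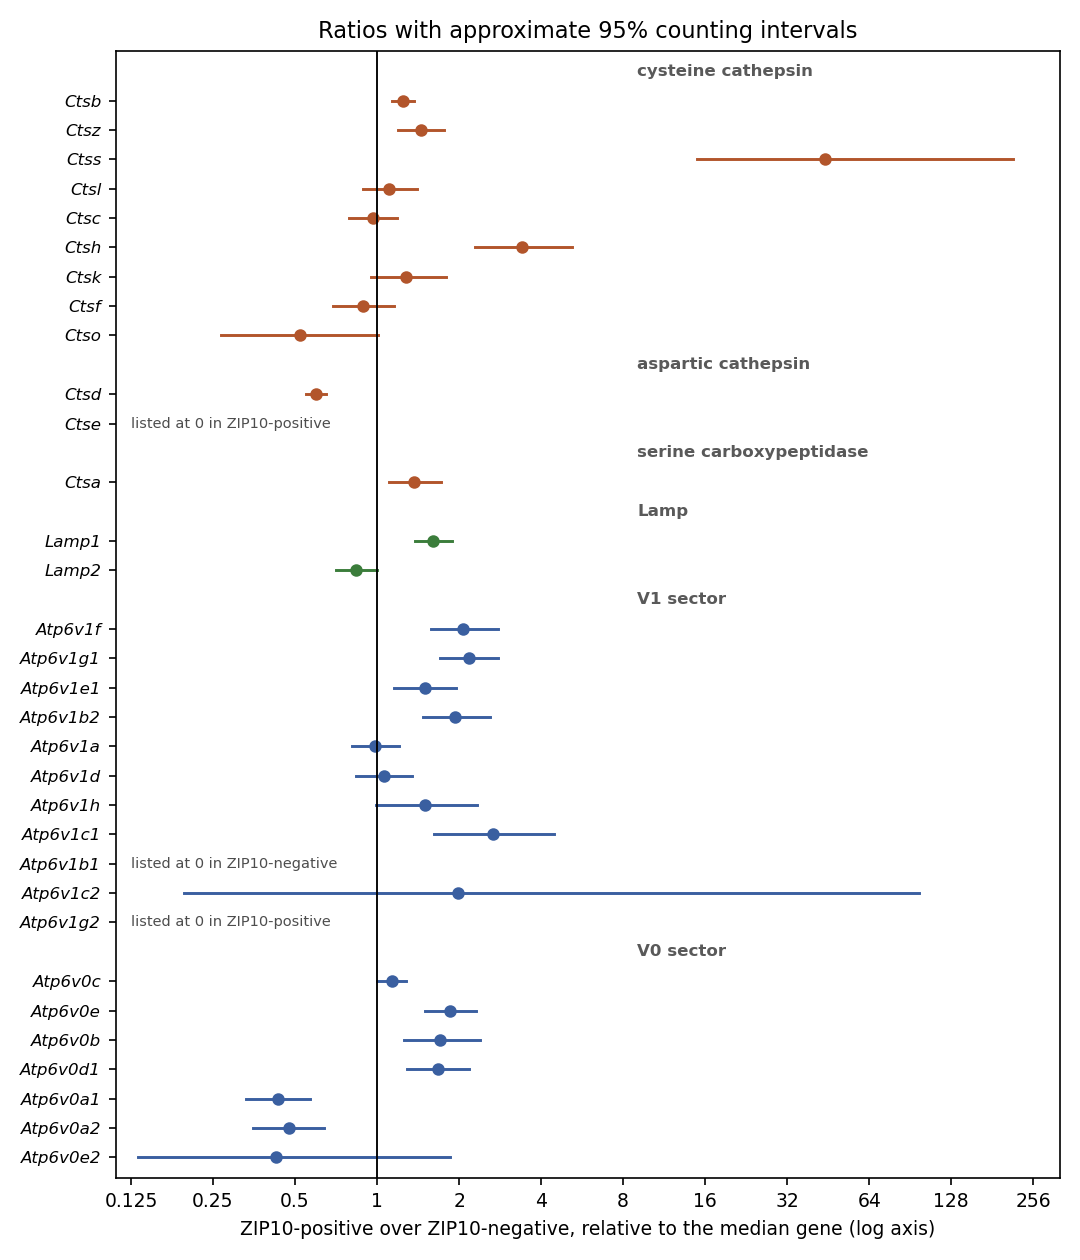
Ratio of ZIP10-positive to ZIP10-negative RPKM relative to the median gene (log x axis, median gene at 1), with bars for approximate 95% counting intervals, for the 29 genes above 0 in both libraries. Of these, 15 intervals lie above the median gene, 4 below it and 10 include it. Relative to genes of similar length 9 lie above, 5 below and 15 include the zero point. The intervals of Atp6v0a1 and Atp6v0a2 lie below those of the other pump genes, apart from the low Atp6v0e2 and Atp6v1c2. Relative to genes of similar length the interval of Atp6v0a2, 0.474 to 0.860, overlaps that of Atp6v0c, 0.711 to 0.909. On that scale the interval of Atp6v0a1, 0.383 to 0.655, lies below that of Atp6v0c.

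**Figure D3:**
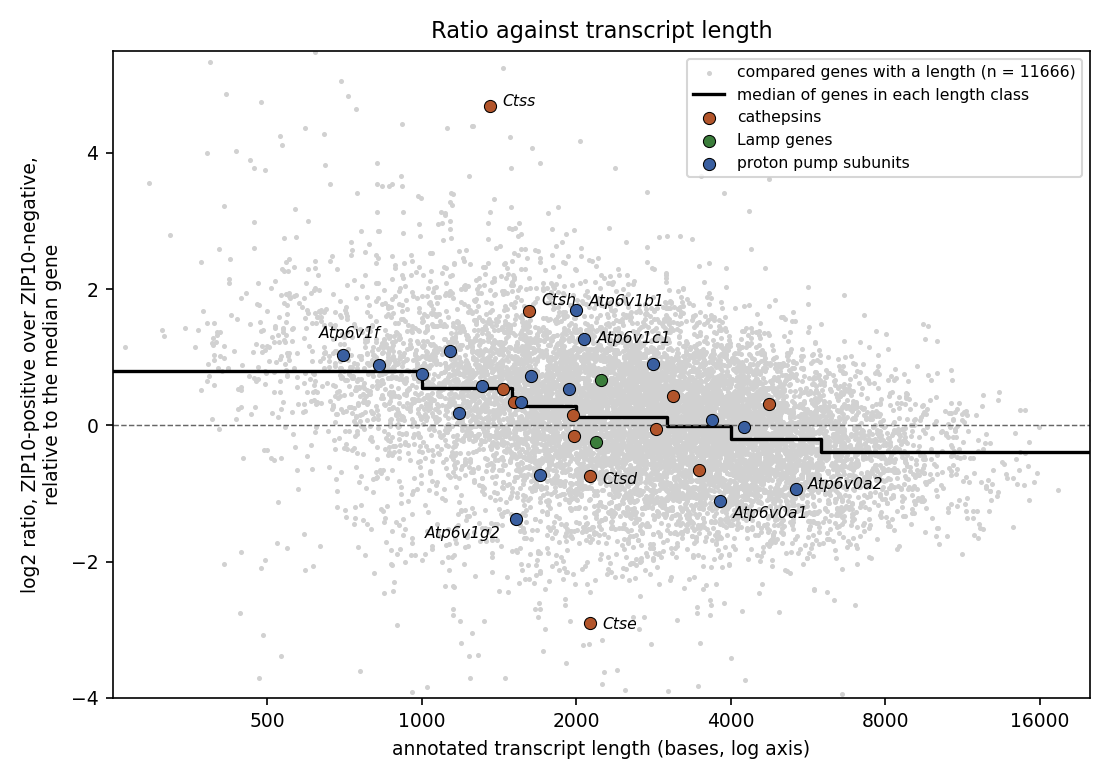
Log2 ratio relative to the median gene (y axis) against annotated transcript length (log x axis) for 11666 compared genes in grey, of which 53 lie outside the axes, with the median of each length class as a black line and the compared members in colour. The line runs from 0.81 for the shortest to -0.38 for the longest genes, 13 of 18 compared pump subunits lie above the zero point of genes of their own length, and Ctss and Ctsh lie above and Ctse and Ctsd below it.

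The compared pump genes outside the symbol rule are accessory and assembly genes and the a3 subunit gene Tcirg1. They lay above the median gene in 7 of 10 cases, against 54.5% of all compared genes. Of these 10 genes 2 were at least 2-fold higher relative to the median gene and none lower, against 14.7% and 11.4% of all compared genes. Their median log2 ratio was 0.46. Atp6ap1, an accessory subunit, stood at 77.2 RPKM in ZIP10-positive against 22.4 RPKM in ZIP10-negative cells. Rogdi, a partner of the complex that assembles the pump, stood at 18.7 RPKM in ZIP10-positive against 1.86 RPKM in ZIP10-negative cells, at a log2 ratio of 1.99 relative to the median gene. Atp6ap2, the prorenin receptor, stood at 16.1 and 7.996 RPKM in ZIP10-positive and ZIP10-negative cells, a ratio of 2.01 close to that of the median gene.

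Genes of the rest of the lysosome lay around the median gene in both directions. Among 44 other lysosomal hydrolases and activators, 8 were at least 2-fold higher relative to the median gene and 6 lower, with a median of 0.22. Background shares were 14.7% and 11.4%. Psap, the precursor of the saposins that help degrade sphingolipids, stood at 388 RPKM in ZIP10-positive against 73.6 RPKM in ZIP10-negative cells. Pld3, a lysosomal exonuclease, was lower relative to the median gene and as deposited, at 31.9 and 75.9 RPKM in ZIP10-positive and ZIP10-negative cells. Among 31 other lysosome membrane genes 1 was at least 2-fold higher and 2 lower, against the same background shares, with a median of 0.16. The higher one was Slc11a1, the metal exporter of macrophage phagosomes, at 18.6 RPKM in ZIP10-positive against 0.647 RPKM in ZIP10-negative cells. The abundant membrane genes Cd63 and Laptm4a stood at 382 and 322 RPKM in ZIP10-positive cells, against 121 and 84.3 RPKM in ZIP10-negative cells, within 2-fold of the median gene. Laptm5, the next most abundant, stood at 90.3 RPKM in ZIP10-positive against 57.6 RPKM in ZIP10-negative cells. Its log2 ratio relative to the median gene was -0.32.

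Genes for sorting to lysosomes, such as the mannose 6-phosphate receptor gene M6pr at 61.7 RPKM in ZIP10-positive against 30.1 RPKM in ZIP10-negative cells, had 3 of 24 at least 2-fold higher and 3 lower. Their median log2 ratio was -0.20, and their transcripts are long, with a median of 3805 bases. The background shares for the counts of this list and the next were 14.7% and 11.4%. Among 19 regulators of lysosome genes and of signalling docked on lysosomes, 1 was at least 2-fold higher and 2 lower, with a median of 0.25. The higher one was listed as 0910001L09Rik, now Lamtor4, a part of the complex that anchors mTORC1 to lysosomes, at 82.2 RPKM in ZIP10-positive against 19.1 RPKM in ZIP10-negative cells. Genes of matching lengths had median zero points, relative to the median gene, of -0.23 for the sorting list, 0.05 for the hydrolases and 0.10 for the regulators, beside list medians of -0.20, 0.22 and 0.25.

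Cathepsin inhibitors had a higher median ratio than the cathepsins, with the highest values in genes of the stefin A cluster. This difference was not tested. Of 11 compared genes 8 were at least 2-fold higher relative to the median gene and 1 lower, against 14.7% and 11.4% of all compared genes. The median log2 ratio was 3.22, or 1.63 over the 7 genes above 0 in both libraries. Their transcripts are short, with a median of 617 bases, and genes of matching lengths had a median zero point 0.77 above the median gene. Cst3, the secreted cystatin C, stood at 885 RPKM in ZIP10-positive against 144 RPKM in ZIP10-negative cells. Cstb, the broadly expressed cytosolic stefin B, stood at 193 and 43.5 RPKM in ZIP10-positive and ZIP10-negative cells. Relative to the median gene the log2 ratios were 1.63 for Cst3 and 1.16 for Cstb. Those of Cst6, Cst7 and Kng1, the other compared inhibitors outside the stefin A cluster, were 0.31, -0.37 and -1.41. Genes of the stefin A cluster were far further apart. Stfa1 stood at 292 RPKM in ZIP10-positive against 0.861 RPKM in ZIP10-negative cells. BC100530 stood at 268 and 2.33 RPKM, and Stfa3 at 174 and 8.85 RPKM, in ZIP10-positive and ZIP10-negative cells. Stfa2, Stfa2l1 and BC117090 stood at 123, 123 and 55.3 RPKM in ZIP10-positive cells and were listed at 0 in ZIP10-negative cells. Near-identical stefin A genes can share reads, so the level of each is uncertain, and these genes are known to be expressed in mouse neutrophils. Neutrophil markers moved with them, with S100a9, Ltf, Ngp, Camp and Retnlg listed at 0 in ZIP10-negative cells, and their part in the stefin values was not tested.

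**Figure D4:**
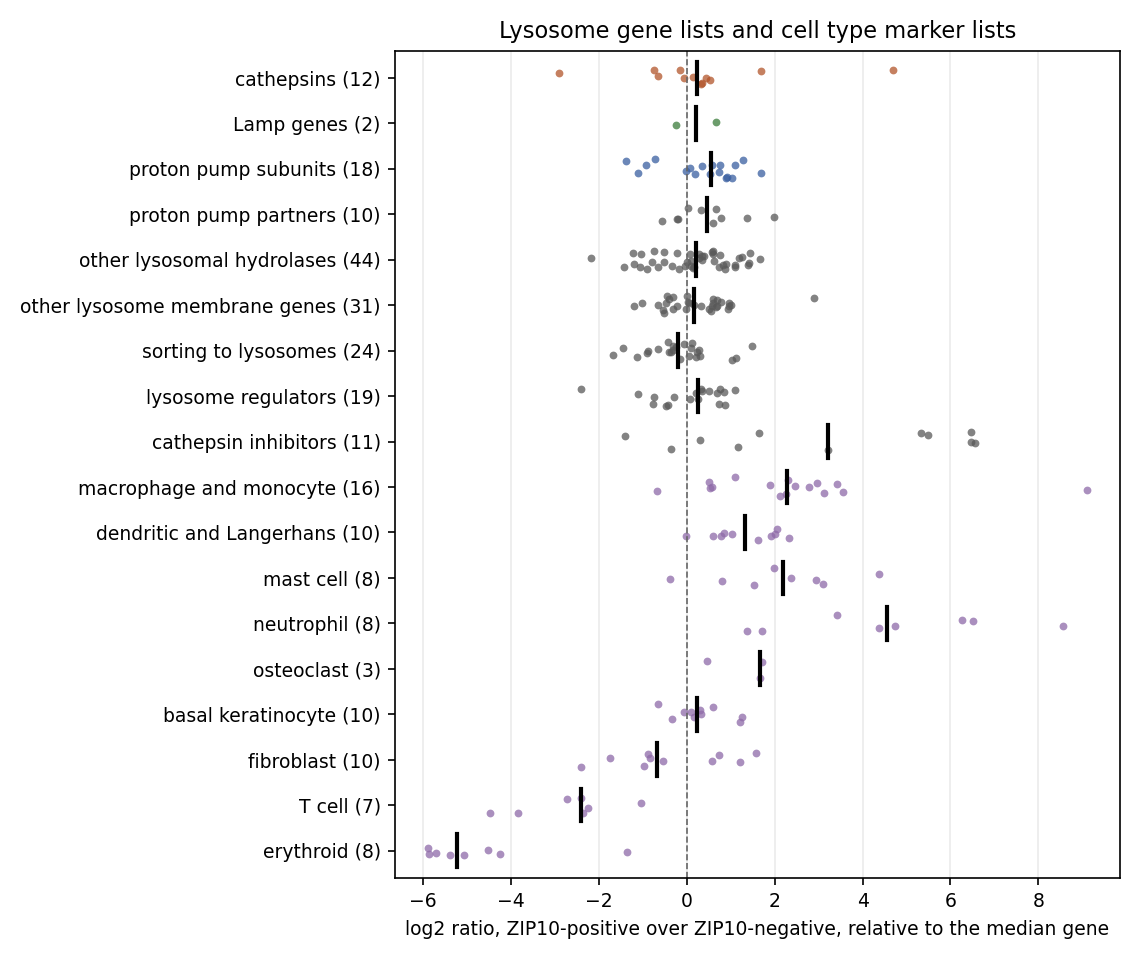
Log2 ratios relative to the median gene (x axis, 0 at the median gene) of the compared members of each list shown, with the number of genes in parentheses and a black bar at the list median. The suprabasal keratinocyte, melanocyte and endothelial lists are not shown. Cathepsins, Lamp genes and pump subunits have medians of 0.23, 0.21 and 0.56, and medians of other lysosome lists lie between -0.20 and 0.46. The medians of cathepsin inhibitors and of leukocyte markers of the myeloid lineage lie further to the right. Those of T cell and erythroid markers lie to the left.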

How the data were processed

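The table the authors deposited holds RPKM, 1 value for each gene and library, a unit that its name states. The submitters' processing notes name mm9 as the build, and cutadapt, TopHat and Cufflinks as tools. Their versions and settings, the annotation and any use of strand: not given in the sources used here. Per the labels' protocols, libraries came from 10 ng of RNA and were read as single 50-base reads.

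Every gene reaching 1 RPKM in either library was compared as log2((positive + 1)/(negative + 1)), as deposited and relative to the median log2 ratio of the 9620 genes at 1 RPKM or more in both libraries. With 1 library per group there was no test. Depth was estimated from whole-number ratios, found for 69.3% of 1236 low genes at a tolerance of 0.0012%, and from the most frequent depth among 477 genes with 1 transcript, within 1.4% of which 23.9% of them lay. Read numbers used transcript lengths of GENCODE M21 and RefSeq, made on another build, less an assumed 199 bases. Of 28 members 9 had read numbers within 5% of the fewest whole reads that give their ratio. Length-matched values used the 500 genes nearest in length and were added after seeing the data. All members at 1 RPKM or more are named, and from other lists the 4 most abundant genes and those 4-fold apart at 10 RPKM or more, of which not every one is printed. Members and lists were chosen with earlier results of these data known. Python 3.11.15, numpy 2.4.6, pandas 2.3.3, scipy 1.17.1 and matplotlib 3.10.9 were used, and the calculations were tested on simulated data. Intervals cover counting error only, since reads carry no molecular identifiers.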

Additional observations from a re-analysis of the deposited data

How the results depend on the processing

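The zero point decided the sign of the cathepsin and Lamp medians. As deposited the median log2 ratios were 1.19 for cathepsins, 1.17 for Lamp genes and 1.48 for pump subunits, with 7, 1 and 11 genes at least 2-fold higher, and 1 cathepsin and 1 pump gene lower. Scaling to genes outside the 50 most abundant moved the zero point up by 0.31 and gave -0.078 for cathepsins and -0.096 for Lamp genes, with 2 cathepsins lower and 1 pump subunit higher. Scaling without globin genes and Rn45s moved it by 0.42 and gave -0.18 and -0.20, again with 2 cathepsins lower and 1 pump subunit higher, while the pump median stayed above 0 at 0.26 and 0.18 under these scalings. Relative to genes of similar transcript length, 2 pump subunits were higher and 1 lower, and of the 15 counting intervals above the median gene 6 no longer lay above the zero point. A pseudocount of 0.1 gave 4 pump subunits lower, and a pseudocount of 5 gave 1 higher and 0 lower. With at least 1 RPKM in both libraries, 1 cathepsin was higher and 0 lower and 1 pump subunit was lower. With at least 10 RPKM in a library, 0 cathepsins and 1 pump subunit were lower, and without a filter the Lamp median was 0.67 and the cathepsin median 0. Among the 32 single genes, 6 changed sign as deposited, 3 with scaling outside the 50 most abundant, 5 without globin genes and Rn45s and 3 by length. The cause of these shifts was not tested.

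No paired analysis was possible because each group has 1 library. At levels near 1 or 2 RPKM a value rests on few reads at this depth, so differences of Atp6v1c2, Atp6v0e2, Atp6v1g2 and Ctso were not detectable beyond counting error or rest on a listed 0. Differences of Atp6v1b1, at 3.13 RPKM in ZIP10-positive cells, and Ctse, at 4.61 RPKM in ZIP10-negative cells, also rest on a listed 0.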

Other observations

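Of the granule cathepsin genes that the symbol rule leaves out, Ctsw was lower in ZIP10-positive cells and Ctsg could not be compared. Ctsw, a cathepsin of cytotoxic lymphocytes, stood at 18.2 RPKM in ZIP10-positive against 129 RPKM in ZIP10-negative cells, and T cell markers were at least 2-fold lower relative to the median gene in 7 of 7 compared genes, at summed levels of 133 and 729.8 RPKM in ZIP10-positive and ZIP10-negative cells. Ctsg, of neutrophil and mast cell granules, was listed at 0 in both libraries, as were Mpo and Elane of the neutrophil list. The neutrophil markers together summed to 1679.7 RPKM in ZIP10-positive cells.

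Of the osteoclast markers 3 of 7 were high enough to compare. Acp5, the tartrate-resistant acid phosphatase that macrophages also express, stood at 45.1 RPKM in ZIP10-positive against 6.75 RPKM in ZIP10-negative cells, while Ctsk, a protease of osteoclasts, had a ratio of 2.53.

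By level, Ctsd ranked 356 among all listed genes of ZIP10-positive cells, against 177 in ZIP10-negative cells. Ctss ranked 881 in ZIP10-positive against 10279 in ZIP10-negative cells, and Atp6v0c 270 against 241.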
